A study of Mus musculus with 6 samples.

Results

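The 9 enzymes described here carry acetyl-CoA to squalene epoxide, the early part of cholesterol synthesis. They are Acat2, Hmgcs1, Mvk, Pmvk, Mvd, Idi1, Fdps, Fdft1 and Sqle, taken by symbol from the 32285 genes of the count matrix, and all 9 were found. Together they held 115423 unique molecular identifiers (UMIs, the counted transcripts), or 0.0232% of the 497727021 UMIs of all kept nuclei. Single-nucleus RNA sequencing, in which nuclei are separated in droplets and their transcripts counted one nucleus at a time, was performed on frozen forebrain of 3 WT and 3 Npc1-/- littermates at postnatal day 16. The null mice carry the Npc1nih allele in every cell, and both genotypes are F1 hybrids between the BALB/cJ and C57BL6/J backgrounds. The study asked which cell types are affected when the endolysosomal cholesterol transporter NPC1 is lost.

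Acetyl-CoA units are joined by the thiolase Acat2 and the synthase Hmgcs1, and the product is turned into mevalonate. Mvk and Pmvk then phosphorylate mevalonate, Mvd removes a carboxyl group, and Idi1 isomerizes the resulting isoprenoid unit. Fdps builds the chain up to farnesyl diphosphate, from which prenyl groups, dolichol and ubiquinone also branch off, and Fdft1 joins farnesyl units to squalene in the first step committed to sterols. Sqle adds the epoxide. The pathway is switched on by SREBP transcription factors when membrane sterol is low. Myelin is rich in cholesterol made within the brain, by oligodendrocytes and by astrocytes among others, since plasma lipoproteins hardly cross the blood-brain barrier.

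The matrix joined 6 libraries, told apart by the barcode suffix, and no key from library to mouse was used here. WT and Npc1-/- were therefore not compared, every pooled value mixes both genotypes, and libraries 1 to 6 are named by suffix alone. Libraries held 8217 to 16118 barcodes and 51343653 to 107583300 UMIs. Of 75867 nuclei kept, 38116 (50.2%) passed a gate on fixed markers into 16 classes. Each class name stands for "-like" nuclei and not for an annotation, and the class called newly formed oligodendrocyte was gated on markers of committed and newly formed oligodendrocytes together. All markers of each class had UMIs in it, but the gate used these markers, so this is no check of the class names. The excitatory neuron gate took only part of such nuclei, and its list joins markers of different layers. Why nuclei failed the gate was not tested. Classes held 307 (macrophage) to 5613 (astrocyte) nuclei, and the mature oligodendrocyte class was uneven, with 89 to 751 nuclei in a library. RNA of other cells was present in all classes. The 10 mature oligodendrocyte markers summed to 5371 CPM (UMIs out of each 1000000 UMIs of the class) in mature oligodendrocytes and to between 72.0 CPM in excitatory neurons and 465 CPM in macrophages outside the oligodendrocyte lineage. Its part in the enzymes' levels was not tested. Levels below are CPM of summed UMIs with exact Poisson intervals at 95%. Ratios carry exact binomial intervals. Both cover counting error only.

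Sequence before the RefSeq transcription start (GRCm38.p6) is shown for Hmgcs1, which had the most UMIs, and for Mvk, whose window held the most CCAAT boxes. It is also shown for Mvd, which had the largest pooled ratio of newly formed oligodendrocytes to oligodendrocyte progenitors, and for Acat2, which followed the others least. Of the 9 enzymes, 6 matched a window of 250 bases, and bases that lie within an annotated gene are left off the sequences shown. Capitals mark the letters TCACNCCAC, the sterol regulatory element that SREBPs bind, and CCAAT, the box of NF-Y, which is known to act beside SREBPs. Both strands were searched (the CCAAT box then reads ATTGG), and no match of one overlapped a match of the other.
Hmgcs1, chr13:119690101-119690350, plus strand: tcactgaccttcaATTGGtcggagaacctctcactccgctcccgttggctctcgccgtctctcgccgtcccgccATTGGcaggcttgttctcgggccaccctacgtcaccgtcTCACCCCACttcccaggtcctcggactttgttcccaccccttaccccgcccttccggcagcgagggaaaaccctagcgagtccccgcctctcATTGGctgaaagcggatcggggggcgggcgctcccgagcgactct
Mvk, chr5:114444061-114444268, plus strand: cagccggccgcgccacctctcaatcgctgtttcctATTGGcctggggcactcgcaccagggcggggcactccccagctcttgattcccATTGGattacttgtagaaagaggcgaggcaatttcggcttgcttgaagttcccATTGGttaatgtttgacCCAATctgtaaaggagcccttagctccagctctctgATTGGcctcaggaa
Mvd, chr8:122443423-122443672, minus strand: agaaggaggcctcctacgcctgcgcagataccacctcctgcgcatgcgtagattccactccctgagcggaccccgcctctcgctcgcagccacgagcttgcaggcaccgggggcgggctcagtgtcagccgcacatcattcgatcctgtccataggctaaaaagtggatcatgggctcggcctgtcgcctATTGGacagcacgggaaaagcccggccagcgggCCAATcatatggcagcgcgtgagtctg
Acat2, chr17:12960748-12960975, minus strand: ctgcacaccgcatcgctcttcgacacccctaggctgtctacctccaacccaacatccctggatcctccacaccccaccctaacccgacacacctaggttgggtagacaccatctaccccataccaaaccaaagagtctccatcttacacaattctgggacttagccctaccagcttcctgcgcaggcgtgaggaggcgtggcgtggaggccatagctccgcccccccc
The Hmgcs1 window held the sterol element once, beginning 137 bases before the start, and CCAAT boxes at 237, 176 and 45 bases. The windows of the other 5 enzymes held no match to these letters, and sterol elements written with other letters were not searched. Of all 32851 windows of this length, 1.05% held a match to the sterol element letters and 33.8% held at least 1 CCAAT box, while 2.79% held 3 or more CCAAT boxes. The Mvk window held 5 CCAAT boxes. Mvk starts 209 bases from Mmab, a gene read in the opposite direction, and the bases shown lie between them. Counted over the whole window, Mvd held 2 CCAAT boxes, the first of the Pmvk windows held 1, and the Acat2 window held none. Idi1 held 2, both within the annotated Idi1 gene. A match of letters is a description of the window and not a bound site.

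Across the 16 classes, 8 of the 9 enzymes were highest in mature oligodendrocytes, and Acat2 was highest in newly formed ones. Astrocytes came next for 7 of those 8 and newly formed oligodendrocytes for Mvd. For Acat2, Pmvk, Mvd and Sqle the counting interval of the second class overlapped that of the first. The order of the first classes for Acat2 reversed when the gate asked for 2 more markers, with median-of-ratios size factors, and without library 1 or library 2. In CPM, a neuron class was lowest for 8 enzymes, striatal projection neurons for 7 of them and interneurons for Fdft1. Acat2 was lowest in ependymal cells at 12.4 CPM. Not every neuron class was low for each enzyme, since interneurons had 19.8 CPM of Pmvk against 19.5 CPM in newly formed oligodendrocytes. The low place of neurons also depends on scaling by total UMIs. Per total UMI, log2 size factors were -0.28 in excitatory neurons, -0.25 in striatal projection neurons and -0.08 in interneurons. They were 0.21 in microglia and 0.30 in fibroblasts, so such scaling brings neurons closer to these classes. CPM is not a level per nucleus. The summed level was 582 CPM (569 to 595) in mature oligodendrocytes, 440 CPM (431 to 448) in astrocytes and 343 CPM (333 to 354) in newly formed oligodendrocytes. It was 160 CPM (156 to 164) in striatal projection neurons, which puts the highest class 3.63-fold above the lowest. Between these ends the order was weak. From pericytes at 268 CPM to choroid plexus at 235 CPM, 10 classes lay within a narrow band, and the counting intervals of each neighbouring pair in it overlapped. Of all 15 neighbouring pairs in the order of the sum, 10 overlapped.

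**Figure D1:**
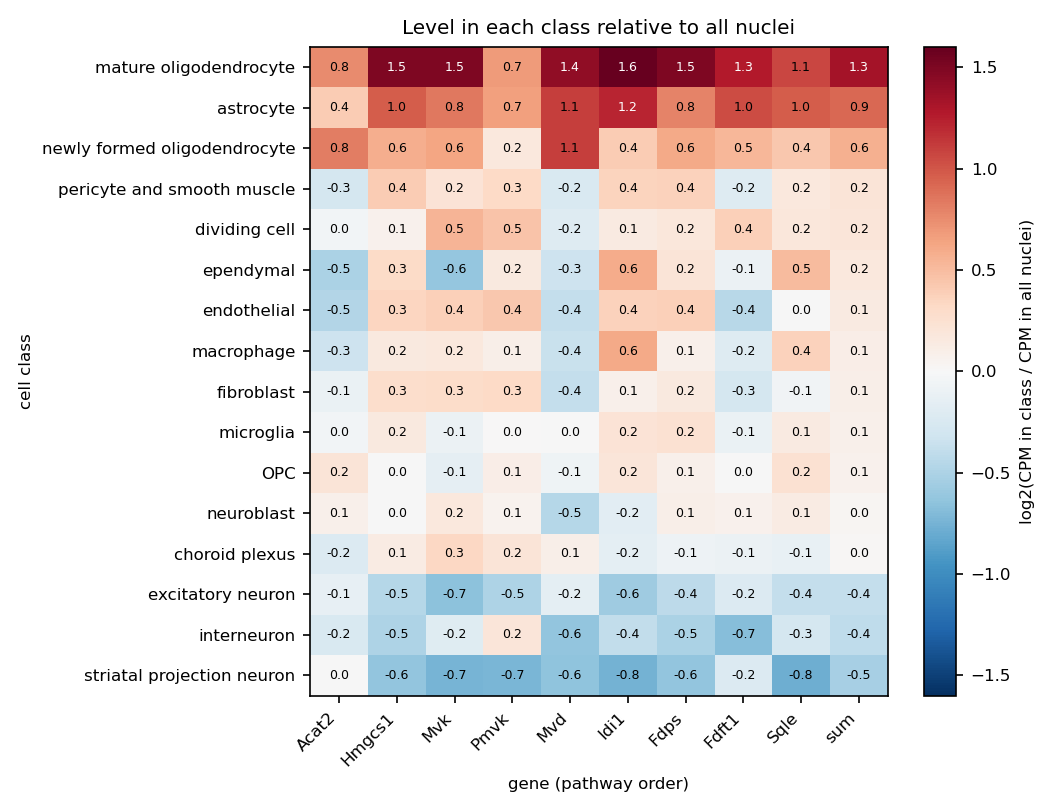
Rows are the 16 classes in the order of the summed level, columns are the 9 enzymes in pathway order and their sum, and colour is log2 of the CPM in the class over the CPM in all nuclei. Mature oligodendrocytes, astrocytes and newly formed oligodendrocytes form the red block at the top, and the 3 neuron classes at the bottom are mostly blue.

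Hmgcs1 was the most frequently counted member, with 37658 UMIs. In mature oligodendrocytes its level was 237, 232, 225, 181, 168 and 122 CPM in libraries 1 to 6, against 83.1, 89.0, 80.6, 70.9, 53.4 and 53.3 CPM in oligodendrocyte progenitors (OPCs). The ranges did not overlap. Astrocytes had 126 to 164 CPM, and excitatory neurons had 41.6 to 65.0 CPM. Over its 16 classes, 12 of the 15 neighbouring pairs had overlapping intervals, the exceptions being mature oligodendrocyte to astrocyte, astrocyte to newly formed oligodendrocyte, and neuroblast to excitatory neuron. Library 6 had the lowest Hmgcs1 level in 12 of the 16 classes. An antisense gene, Gm48342, overlaps Hmgcs1 and held 960 UMIs of its own.

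The shares of nuclei in which a UMI was seen changed with the number of UMIs counted per nucleus. After each nucleus was thinned to 2000 UMIs, Hmgcs1 was seen in 35.9% of mature oligodendrocytes (Clopper-Pearson interval 33.8 to 38.1), 23.8% of astrocytes (22.7 to 25), 20.1% of newly formed oligodendrocytes (18.3 to 21.9), 14.5% of OPCs (13.3 to 15.8) and 10.7% of excitatory neurons (9.74 to 11.8). Unthinned, the share in excitatory neurons was 37.4%, close to the 39.5% of astrocytes, although their CPM differed 2.67-fold. The median excitatory neuron held 8701 UMIs and the median astrocyte 3643. No class is known to lack these enzymes, so no share serves as a background for free RNA. The thinned shares of the other 8 enzymes in mature oligodendrocytes ran from 4.51% (Mvd) to 16.8% (Fdft1). Thinning left out 167 of 2185 mature and 364 of 3585 OPC nuclei as too shallow.

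The step from OPC to mature oligodendrocyte spans myelination. All 9 enzymes were higher in mature oligodendrocytes, and their sum was 582 against 243 CPM, a 2.40-fold difference (log2 1.26, 1.21 to 1.32) that held its direction in 6 of 6 libraries (1.13 to 1.51). To read single genes against the rest, a gene was called where its pooled log2 ratio was at least 1 in size and had the same sign in all 6 libraries (with 0.5 UMIs added to each count). Of 11465 genes with at least 200 UMIs in these classes, 6.63% were called higher and 6.62% lower in mature oligodendrocytes. Of the 9 enzymes, 6 were called higher and none lower, with a median log2 ratio of 1.39, where the median of all genes was -0.12. No test over the libraries was made, since they mix both genotypes and have no known group, and a call is a rule of size.

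Acat2, at the entry, stood at 29.7 CPM in mature oligodendrocytes and 20.3 CPM in OPCs (log2 0.55, 0.34 to 0.76). Its library ranges overlapped, at 22.9 to 38.8 and 14.7 to 25.7 CPM, and library 3 went the other way. Hmgcs1, the next step, had a log2 ratio of 1.5 (1.4 to 1.59), between 1.2 and 1.65 in the libraries. Its library range was narrow beside those of Mvk and Mvd.

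Of the mevalonate kinases, Mvk had the larger ratio. It was at 25.7 CPM in mature oligodendrocytes (library values 15.3 to 30.1, median 25.4) and 8.25 CPM in OPCs (6.29 to 10.5, median 7.74), a log2 ratio of 1.64 (1.35 to 1.93). The ranges did not overlap, though single libraries ran from 0.60 in library 6 to 2.26 in library 5. In library 6 the mature value rests on 10 UMIs. Pmvk, which acts directly after it, was at 27.7 and 18.7 CPM, a log2 ratio of 0.57 (0.35 to 0.79). Its library ranges overlapped, and it was not called.

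Mvd stood at 22.9 CPM against 8.19 CPM in OPCs, with a log2 ratio of 1.48 (1.19 to 1.78). The lowest mature library had 13.8 CPM and the highest OPC library 12.3 CPM, so the ranges nearly touched. That lowest mature value, in library 6, rests on 9 UMIs. Idi1 stood at 45.1 CPM in mature oligodendrocytes (37.7 to 60.9, median 42.1) and 17.2 CPM in OPCs (13.5 to 19.3, median 16.6). Its log2 ratio was 1.39 (1.19 to 1.6), and its lowest mature value was well above its highest OPC value.

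Fdps stood at 76.0 CPM (51.9 to 87.4, median 75.3) against 28.4 CPM in OPCs (18.9 to 32.1, median 29.2), with a log2 ratio of 1.42 (1.26 to 1.58) and library ratios from 1.24 to 1.52. Fdft1 stood at 91.0 against 37.5 CPM, with a log2 ratio of 1.28 (1.14 to 1.42). Sqle was at 50.4 CPM (44.3 to 62.6) against 28.6 CPM (19.6 to 36.5). Its log2 ratio of 0.82 (0.65 to 0.99) was positive in 6 of 6 libraries without reaching the size for a call. Fdft1 shares 774 bases with Ctsb on the other strand, a lysosomal protease gene that held 22459 UMIs, and the sources do not say whether counting used strand.

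**Figure D2:**
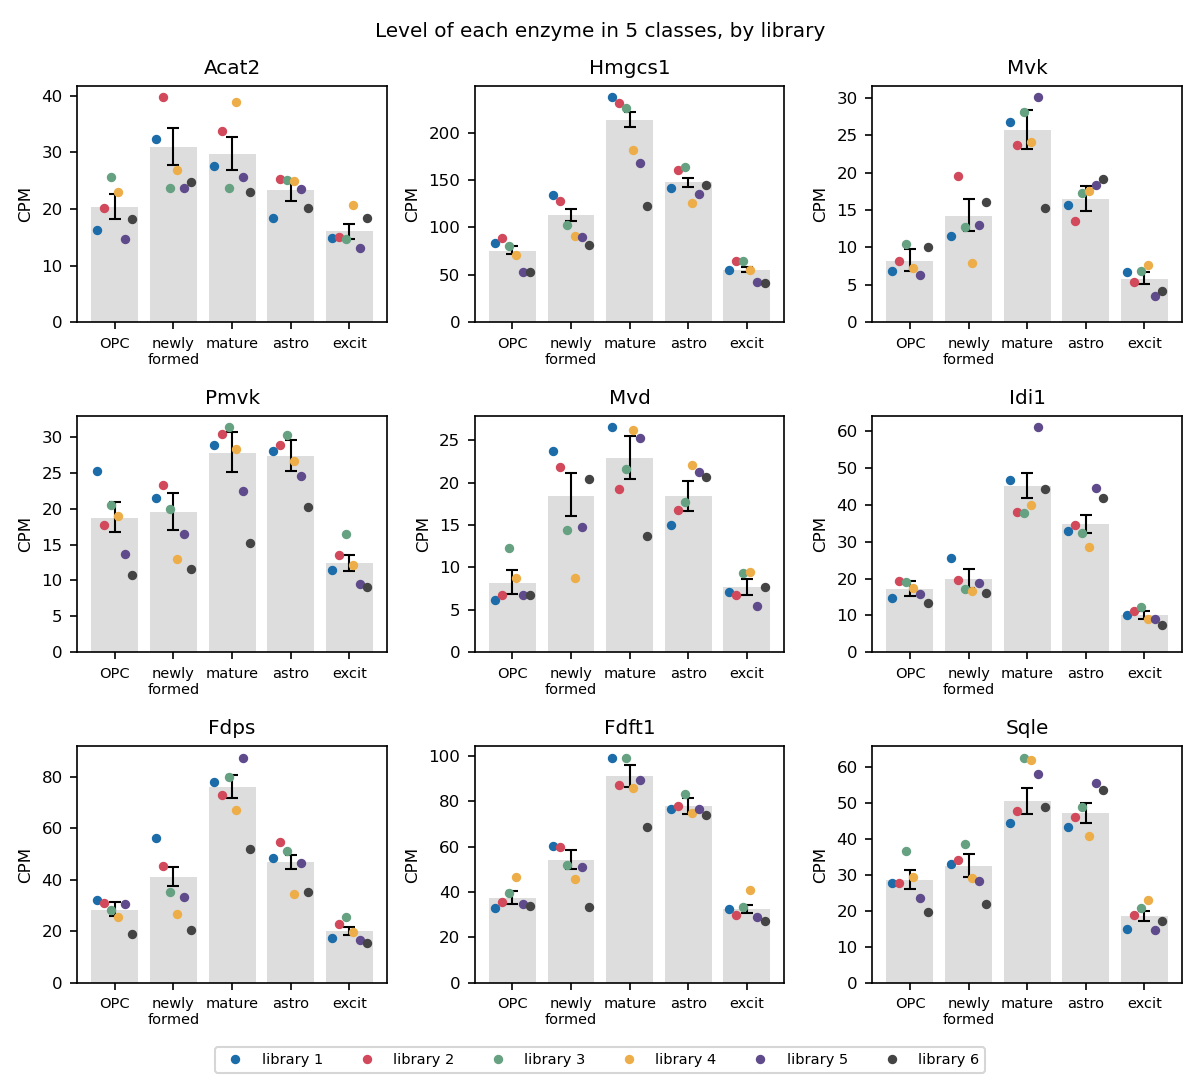
Each panel is 1 enzyme, with bars for the pooled CPM of 5 classes, whiskers for the 95% Poisson interval and 1 coloured point per library. Mature oligodendrocytes stand above OPCs in every library for each enzyme except Acat2, where library 3 is reversed.

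The sum in committed and newly formed oligodendrocytes lay between those of OPCs and mature cells, at 343 CPM, 1.41-fold above OPCs (log2 0.50, 0.44 to 0.56), with library values from 0.10 in library 4 to 0.70 in library 1. Of 11232 genes, 4.19% were called higher and 3.31% lower in newly formed oligodendrocytes than in OPCs. Of the enzymes, 1 was called higher and none lower, and their median log2 ratio was 0.53 (all genes -0.04). The called enzyme was Mvd, at 18.5 against 8.19 CPM (log2 1.17, 0.86 to 1.5). That call was fragile, since library 4 had a ratio of -0.01 before the 0.5 UMIs were added, and the pooled ratio was 0.97 without library 1 and 0.99 without library 2, which left no enzyme past 1. Acat2 reached its highest level here, at 30.9 CPM (log2 0.61 over OPCs), and library 3 again went the other way. Idi1 (0.21, -0.04 to 0.47), Sqle (0.18, -0.02 to 0.38) and Pmvk (0.06, -0.20 to 0.31) differed from OPCs by no more than counting error.

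The remaining part of the difference came between newly formed and mature oligodendrocytes. Here the sum was 1.70-fold higher in mature cells (log2 0.76, 0.71 to 0.82, libraries 0.58 to 1.06). Among 10860 genes, 4.3% were called higher and 4.07% lower. Of the enzymes, 8 were higher in mature cells, 1 was called higher and none lower, and their median log2 ratio was 0.75 (all genes -0.08). Idi1, the called one, was at 45.1 against 19.9 CPM (log2 1.18, 0.96 to 1.4), between 0.87 and 1.71 in the libraries. Without library 1 or library 2, 2 enzymes had a pooled ratio past 1, and without doublet candidates 3 had. Hmgcs1 (0.92, 0.83 to 1.01), Fdps (0.89, 0.74 to 1.05) and Fdft1 (0.75, 0.61 to 0.88) were higher in mature cells in all 6 libraries. Acat2 had a ratio of -0.06 (-0.26 to 0.15). Mvd, with 0.31 (0.06 to 0.56), was lower in mature cells in libraries 2 and 6, in library 6 on 9 UMIs in mature and 14 in newly formed cells.

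Markers of neighbouring stages were read beside these ratios. The 10 OPC markers summed to 11261 CPM in OPCs, 8425 CPM in newly formed and 1032 CPM in mature oligodendrocytes. The 10 mature markers summed to 184, 801 and 5371 CPM in the same order, and in newly formed cells to 298 to 1085 CPM by library. All 10 of each list had UMIs in each stage, so presence alone does not tell the stages apart. The 10 astrocyte markers were at similar sums, of 677 CPM in OPCs and 543 CPM in mature oligodendrocytes (5627 CPM in astrocytes). The part of either in the ratios was not tested.

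Astrocytes and neurons are the usual partners in accounts of brain cholesterol, with astrocytes known to supply neurons. Each of the 9 enzymes was higher in astrocytes than in excitatory neurons, and the sum was 440 against 178 CPM, a 2.47-fold difference (log2 1.30, 1.26 to 1.35, libraries 1.00 to 1.63). CPM is a share of the UMIs of a class, and the median excitatory neuron held 8701 UMIs against 3643 in the median astrocyte. The ratio is therefore not one of enzyme UMIs per nucleus. Many genes differed between these classes in the same direction. Of 13170 genes, 25.9% were called higher and 10% lower in astrocytes, with a median log2 ratio of 0.43. Of the enzymes, 8 were called higher and none lower, with a median of 1.26. Scaled by median-of-ratios size factors in place of total UMIs, the sum fell under the size for a call at 0.87, and 2 enzymes stayed past it.

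Idi1 had the largest of these ratios, at 34.7 CPM in astrocytes (28.5 to 44.5) and 10.1 CPM in excitatory neurons (7.52 to 12.4), a log2 difference of 1.78 (1.6 to 1.96) and 3.43-fold. The ranges lay far apart. Mvk followed at 16.5 against 5.82 CPM (1.5, 1.26 to 1.75), then Hmgcs1 (1.41, 1.33 to 1.49) and Sqle (1.36, 1.22 to 1.5). Fdft1 was at 77.8 against 32.4 CPM, and its astrocyte libraries lay close together at 74.1 to 83.3 CPM. Acat2 was again apart, at 23.3 against 16 CPM (0.54, 0.37 to 0.71), though higher in astrocytes in 6 of 6 libraries. Acat3, a close paralog of Acat2, was at 11.9 CPM in astrocytes and 1.99 CPM in excitatory neurons. How reads shared by both genes were counted was not given, so the Acat2 values are uncertain to that extent.

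Mature oligodendrocytes and astrocytes, the classes with the highest sums, were closer to each other. All 9 were lower in astrocytes than in mature oligodendrocytes, with a sum of 440 against 582 CPM (log2 -0.40, -0.45 to -0.36). Libraries 1 to 5 ran from -0.55 to -0.35, and library 6, which had 89 mature nuclei, stood at 0.09. Of 12400 genes, 12.4% were called higher and 6.47% lower in astrocytes, and none of the 9 enzymes was called in either direction (median log2 ratio -0.35, all genes 0.19). Fdps (-0.70, -0.82 to -0.58) and Idi1 (-0.38, -0.53 to -0.23) were lower in astrocytes in all 6 libraries. Pmvk (-0.02, -0.20 to 0.16) and Sqle (-0.10, -0.23 to 0.04) had intervals that included 0. All 5 comparisons share classes with one another, so they are not independent of each other.

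**Figure D3:**
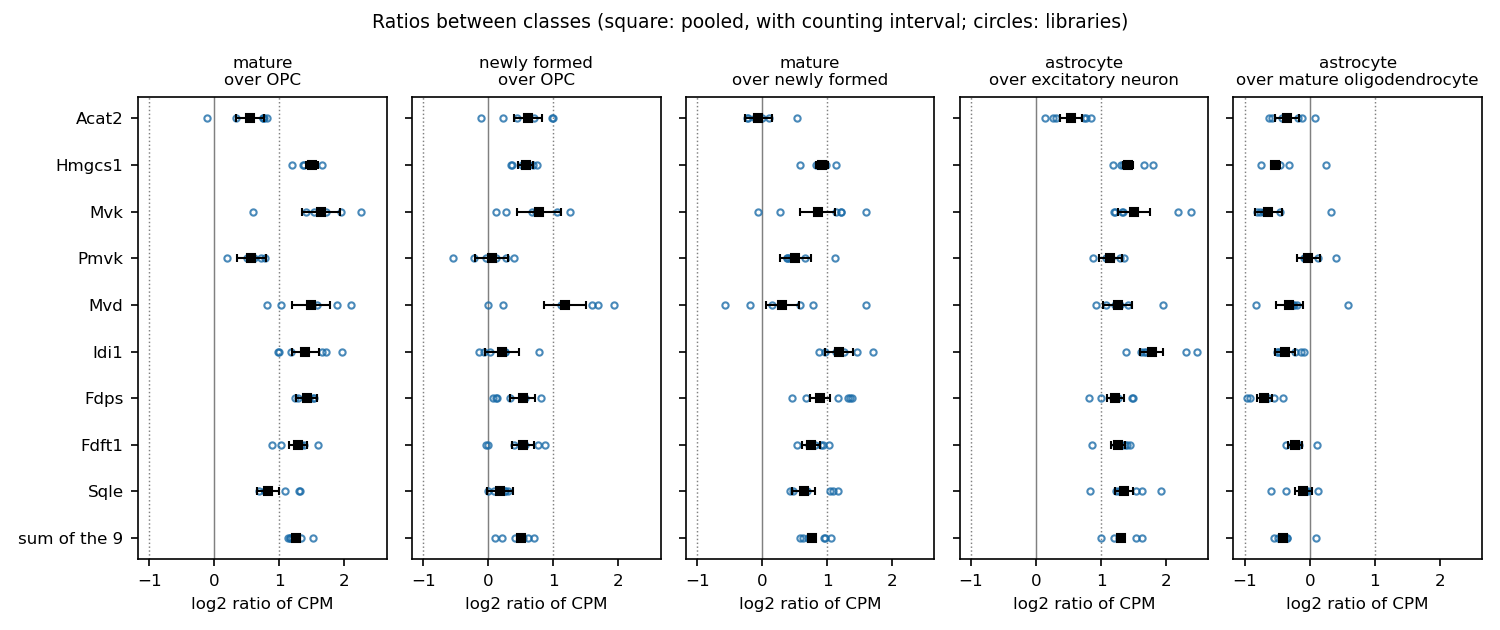
Each panel is 1 comparison of classes, with black squares for the pooled log2 ratio of CPM, whiskers for the 95% counting interval and open circles for the 6 libraries. Dotted lines mark ratios of 1 and -1, past which 6 enzymes lie in the first panel and 8 in the fourth, while Acat2 stays inside in all 5.

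The genes after squalene put these values in context. Of the 10 post-squalene enzymes, 5 were called higher in mature oligodendrocytes than in OPCs and none lower, with a median of 1.10. Of all genes, 6.63% were called higher in this comparison. Among these were Lss, Cyp51, Msmo1 and Nsdhl, and the largest ratio was that of Nsdhl, a C4-demethylation enzyme, at 56.0 against 15.2 CPM (1.88, 1.67 to 2.09).

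Other products branch off after mevalonate. Of 8 genes for geranylgeranyl, ubiquinone and dolichol synthesis and for protein prenylation, 1 was called higher in mature oligodendrocytes, Fntb, a farnesyltransferase subunit (1.18, 1.05 to 1.32), and none lower, with a median of 0.03. Of the 9 sterol regulators with enough UMIs, 1 was called higher, which is not reported here, and the median of the 9 was 0.41. Srebf2, which encodes the SREBP that drives the pathway and was picked here after its values were seen, was at 140 against 80.6 CPM (0.80, 0.70 to 0.90). Of the acetyl-CoA genes and paralogs, 1 of 4 was called higher, Acss2, an acetyl-CoA synthetase (2.06, 1.94 to 2.19). None of either list was called lower. The single calls in these lists stand against the 6.63% of all genes called higher in this comparison.

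The same lists were read in the other comparisons. Over OPCs, newly formed oligodendrocytes had 1 branch gene called higher, Fnta, the other farnesyltransferase subunit, at 79.4 against 34.8 CPM (1.19, 1.04 to 1.34). Of 9 sterol regulators, 1 was called higher, which is not reported here (all genes 4.19%). None of the 10 post-squalene enzymes was called, with a median of 0.63. From newly formed to mature oligodendrocytes, Nsdhl (1.18, 0.99 to 1.38) and Acss2 (1.34, 1.23 to 1.46) were called higher. So was 1 of 9 sterol regulators, not reported here (all genes 4.3%). No gene of the lists was called lower in either step.

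In astrocytes over excitatory neurons, 5 of 10 post-squalene enzymes were called higher (Cyp51, Msmo1, Nsdhl, Hsd17b7 and Dhcr7), with a median of 0.88. Msmo1, a methylsterol oxidase, was at 143 against 25.2 CPM (2.51, 2.40 to 2.62). Of 9 regulators, 4 were called higher, among them Srebf1, which encodes the SREBP best known for fatty acid synthesis (2.82, 2.57 to 3.08), Insig1 and Stard4. Of 5 acetyl-CoA genes and paralogs, 4 were called higher, among them Acat3, Acly and Acss2 (1.27, 1.18 to 1.36). Fntb was called lower (-1.15, -1.27 to -1.03). These counts stand against the 25.9% of all genes called higher in this comparison and their median of 0.43. With median-of-ratios size factors, Cyp51, Dhcr7, Hsd17b7, Stard4, Acly and Acss2 came under a ratio of 1. Set against mature oligodendrocytes, astrocytes had Srebf1 (1.43, 1.17 to 1.69) and Acat3 (2.33, 1.82 to 2.89) called higher and Fntb (-1.56, -1.69 to -1.43) lower, and no post-squalene enzyme was called in either direction. Of all genes, 12.4% were called higher and 6.47% lower in that comparison.

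As a description over the 16 classes, which share libraries, the 36 pairs of enzymes had correlations of log2(CPM + 1) with a median of 0.79. Hmgcs1 and Fdps were the most alike, with r = 0.98, followed by Idi1 and Sqle with 0.96. The least alike were Acat2 and Pmvk, with 0.24. Acat2 had the lowest mean correlation with the others, of 0.57, and Pmvk the next lowest, of 0.65. Among 12986 genes with at least 2000 UMIs, the 10 most like the mean of the 9 included Nsdhl (0.96), Cmtm5 (0.94), Syt11 (0.94), Gpr37 (0.94), Acly (0.93), Insig1 (0.92), Cyp51 (0.92), Msmo1 (0.92) and Hsd17b7 (0.92). Nsdhl, Cyp51, Msmo1 and Hsd17b7 are enzymes after squalene, Acly makes cytosolic acetyl-CoA, and Insig1 is a known SREBP target. For single enzymes, the 2 most like genes were Fdps and Idi1 for Hmgcs1, Hmgcs1 and Gpr37 for Fdps, Cmtm5 and Sqle for Idi1, Idi1 and Cmtm5 for Sqle, Cyp51 and Hsd17b7 for Mvd, Cyp51 and Srebf2 for Fdft1, Erg28 and Tulp4 for Mvk, Tkt and Rdx for Pmvk, and Zfp280c and Far1os for Acat2.

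The make-up of the sum shifted accordingly. Acat2 gave 5.10% of the 9 enzymes' UMIs in mature oligodendrocytes (4.64 to 5.60, libraries 3.89 to 7.01) and 10.9% in striatal projection neurons (10.2 to 11.7, libraries 9.42 to 14.6). Those library ranges did not overlap. Hmgcs1 gave 36.7% and 30.4%, and its library ranges, 29.6 to 39.6% and 22.9 to 34.9%, did. Shares between genes are not levels per length, since 3′ counts were not scaled by length and reads per transcript differ among genes.

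Libraries differed among themselves. In all nuclei the sum was 252, 262, 248, 220, 196 and 169 CPM in libraries 1 to 6. Because classes were unevenly spread over the libraries, values were also weighted to 1 fixed make-up of the 16 classes, which gave 271, 279, 283, 249, 224 and 205 CPM. The highest library was then 1.38-fold above the lowest, against 1.56-fold for gated nuclei without the weighting. The spread was widest for Fdps (1.62-fold), Hmgcs1 (1.6-fold) and Pmvk (1.54-fold), and narrowest for Mvd (1.13-fold) and Mvk (1.18-fold). At the fixed make-up Hmgcs1 was at 94.7, 96.1, 99.2, 78.0, 67.1 and 61.9 CPM. For the sum, library 6 was lowest in 10 of the 16 classes and library 5 in 5. Without a key from library to mouse, genotype, depth and preparation cannot be told apart as sources of this spread, and no test was made.

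**Figure D4:**
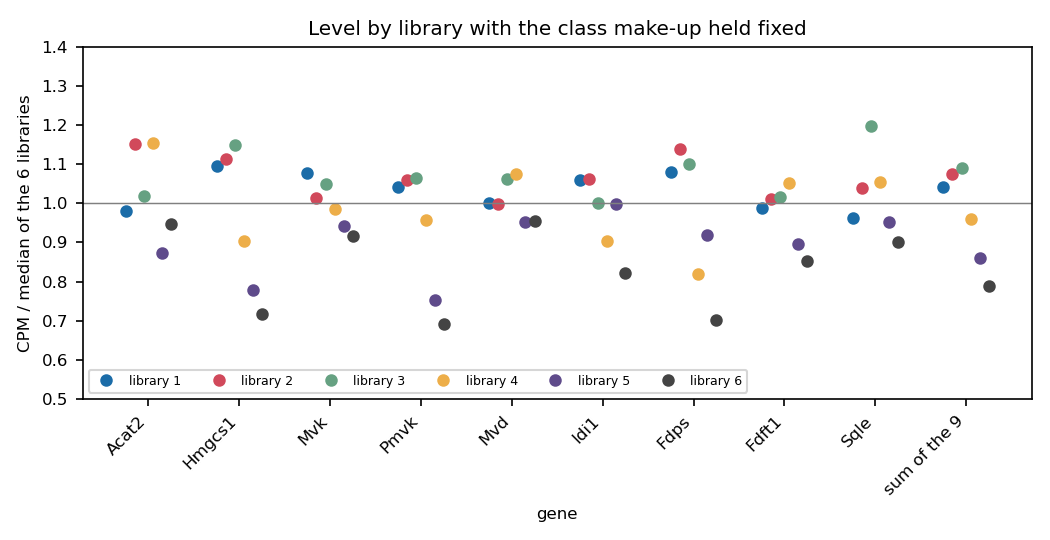
Points are the level of each enzyme and of their sum in the 6 libraries at a fixed make-up of classes, divided by the median of the libraries. Hmgcs1, Pmvk and Fdps spread most, and Mvd and Mvk least.

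In the GRCm38 annotation (GENCODE vM21), Acat2 is at chr17:12942890-12960747, Hmgcs1 at chr13:119690379-119708260, Mvk at chr5:114444269-114460591, Pmvk at chr3:89454541-89469013, Mvd at chr8:122433601-122443422, Idi1 at chr13:8885501-8892451, Fdps at chr3:89093588-89101959, Fdft1 at chr14:63145150-63179578 and Sqle at chr15:59315077-59331192. On the same strand, Rusc1 begins 277 bases after Fdps and Cyba 671 bases after Mvd, so reads past the end of Fdps or Mvd could be counted for the next gene. Gm43738 shares 7512 bases with Fdps on the same strand and is not in the matrix.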

How the data were processed

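Nuclei of frozen forebrain from 3 WT and 3 Npc1-/- mice were profiled with 3′ droplet libraries. The deposited values are raw counts of UMIs, in whole numbers, for each gene in each barcode. The file header names Cell Ranger 6.0.0 and the labels Cell Ranger 2.1.1 with mm10, whereas the authors describe STARsolo with GRCm38, EmptyDrops, DoubletFinder, a mitochondrial limit, a gene filter and imputation. The sources used here name no annotation release and do not say whether introns were counted. PCR duplicates were collapsed by UMI.

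Barcodes with 10% or more mitochondrial UMIs were left out (11 of 75878). A nucleus entered a class if the mean standardized log level of 10 markers (9 for newly formed oligodendrocytes) was at least 0.5, at least 0.3 above the next class, with 3 or more markers detected. Of the nuclei, 9173 lay within 0.1 of a limit. Gated nuclei fell in the Leiden cluster of the same name in 46.9 to 95.6%, depending on class. Doublets stayed in, and 10093 gated nuclei were candidates. Barcode sequences shared by libraries numbered 631 (1264 nuclei, 1.67%). UMIs were summed per class and library and divided by all UMIs of the class. Genes named beside the 9 enzymes are the 10 most like their mean across classes, the 2 most like each enzyme, and those of the pathway lists that a count turns on. Some genes of these lists are not reported here. Members and lists were chosen with earlier results of these data known. Calls and intervals were tested on simulated counts with little or no spread between libraries. That check does not cover the wider spread seen between the real libraries. The median nucleus of a library held 4469 to 5439 UMIs. Python 3.11.15, numpy 2.4.6, scipy 1.17.1 and leidenalg 0.10.2 were used. Alternatives covered the gate, clusters, doublets, scaling, weighting, libraries, thinning and count minimum.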

Additional observations from a re-analysis of the deposited data

How the results depend on the processing

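Values are log2 ratios of the summed level, followed by alternatives beyond its counting interval. The range with each library left out is given for all, whether or not it lies within that interval. Mature over OPC (1.26) was 1.13 with Leiden clusters, 1.38 without doublet candidates, 1.41 with median-of-ratios size factors and 1.18 as the median over libraries. It was 1.23 to 1.31 with each library left out. Newly formed over OPC (0.50) was 0.58 with clusters and 0.43 to 0.57 with a library left out. Mature over newly formed (0.76) was 0.55 with clusters, 0.82 without doublet candidates, 0.86 with size factors, 0.87 with each nucleus weighted the same, 0.83 as the median over libraries and 0.72 to 0.85 with a library left out. Astrocyte over excitatory neuron (1.30) was 1.19 with clusters, 1.2 without doublet candidates, 0.87 with size factors, 1.18 with nuclei weighted the same and 1.25 to 1.36 with a library left out. Astrocyte over mature oligodendrocyte (-0.40) was -0.49 with clusters, -0.63 without doublet candidates, -0.63 with size factors, -0.55 with nuclei weighted the same and -0.43 to -0.35 with a library left out. No sum changed sign. The number of enzymes highest in mature oligodendrocytes was 6 with clusters and 8 or 9 otherwise.

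Of the 45 ratios of single enzymes, 42 to 45 kept their sign under each alternative, the exceptions being ratios of Acat2 and Mvd in mature over newly formed, of Pmvk in newly formed over OPC and of Pmvk in astrocyte over mature oligodendrocyte. Leaving out nuclei with shared barcodes, chosen after seeing the data, moved no sum beyond its interval. Shares of nuclei changed with the thinning depth for every enzyme. No paired analysis was possible because pairing WT and Npc1-/- by the replicate numbers of the labels needs a key from library to mouse, whereas class ratios were taken within each library. Counts of under 10 UMIs per library, as for Mvk and Mvd in small classes, limit the order of the middle classes.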
